A study of Mus musculus with 8 samples.

Results

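The genes of the collagen and laminin chains, the main structural proteins of the extracellular matrix, were followed in the fasted liver of mice labelled as hydrogen water or as control. Members were taken by symbol: every gene named Col, a type number, a and a chain number, and every gene named Lam, a, b or c and a chain number. Of 19938 genes with a probe set that named them alone, 54 qualified, 44 collagens and 10 laminins. They fell into 11 classes by the kind of assembly their chains form. One further laminin gamma chain on the list of known chains was not analysed here.

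The series holds 8 liver RNA samples of C57BL6 mice, each read on its own Affymetrix Mouse Gene 1.0 ST array. The hydrogen water group (4 mice) drank water containing hydrogen for 4 weeks from 7 weeks of age, and the control group is 4 mice. Both groups carried no stated genetic change, were housed at 24 °C under a cycle of 12 h light and 12 h dark, and were fasted for 17 h before the liver was taken. The labels repeat the hydrogen water protocol for the control samples as well, so groups were read from the sample titles. The labels state neither what the controls drank nor the sex of the mice.

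Collagens are trimers of alpha chains wound into a triple helix. Fibrillar collagens (types I, III and V among them) give tissue its tensile strength, type IV forms the sheet of basement membranes, and further types decorate fibrils, span the cell membrane or form beaded filaments. Laminins are cross-shaped trimers of 1 alpha, 1 beta and 1 gamma chain, and their network is the other sheet of a basement membrane. In the liver, hepatic stellate cells and portal fibroblasts are the main makers of fibrillar collagen and increase it in fibrosis. Endothelial cells and bile duct cells make type IV collagen and laminins, while hepatocytes are a known source of Col18a1, whose C-terminal fragment is endostatin.

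Values are log2 signals, so a step of 1 is a 2-fold step in signal, and every difference below is hydrogen water minus control. Signals of different genes were not set against each other, because probes differ in brightness. Array medians lay between 5.27 and 5.37 and correlations between arrays between 0.988 and 0.995. The array least like its group was control 3, with a mean correlation of 0.989. Hepatocyte markers identified the tissue: albumin (Alb) stood at 14.38 ± 0.07 (SD, n = 4) in controls and 14.33 ± 0.05 (SD, n = 4) with hydrogen water. Of the members, 30 lay above the median level of all genes (5.87) and 24 did not, and for the dimmer genes background signal can narrow a difference. The RNA is of whole liver, in which fewer cells of a type and less RNA per cell cannot be told apart.

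The sequences just upstream of the start sites of 4 members are printed as examples. Col1a2 and Col3a1 are fibrillar chains with near-equal signals in both groups. Col6a5 and Col8a2 are the members with the smallest unadjusted p, chosen after their values were seen. Each sequence is the 120 bases before the annotated start, 5′ to 3′ on the gene's strand, from RefSeq (GRCm38.p6). Capitals mark matches to the GC box, spelled GGGCGG, to the CCAAT box, whose name gives its letters, and to the TATA box, here spelled TATAAA. Both strands were searched.
Col1a2, chr6:4505498-4505617, plus strand: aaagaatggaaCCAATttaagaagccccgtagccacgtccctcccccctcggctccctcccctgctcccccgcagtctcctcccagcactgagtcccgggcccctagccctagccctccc
Col3a1, chr1:45311418-45311537, plus strand: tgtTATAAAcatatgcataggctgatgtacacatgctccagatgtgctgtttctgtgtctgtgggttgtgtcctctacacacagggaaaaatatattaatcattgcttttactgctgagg
Col6a5, chr9:105960644-105960763, minus strand: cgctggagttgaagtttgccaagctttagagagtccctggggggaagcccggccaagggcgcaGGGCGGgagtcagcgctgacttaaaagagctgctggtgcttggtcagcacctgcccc
Col8a2, chr4:126286674-126286793, plus strand: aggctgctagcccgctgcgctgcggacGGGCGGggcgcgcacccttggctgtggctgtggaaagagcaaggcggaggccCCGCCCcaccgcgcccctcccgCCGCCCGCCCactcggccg

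Col1a2 held 1 CCAAT box, Col3a1 held 1 TATA box, Col6a5 held 1 GC box, and Col8a2 held 4 GC boxes, a pair of which overlap. RefSeq windows of 250 bases before to 50 after the start were given for 40 of the 54 members, in 44 windows. A GC box occurred in 26 of these (59.1%), against 35.7% of all 32851 windows. A CCAAT box occurred in 14 (31.8%, against 37.4% of all windows) and a TATA box in 5 (11.4%, against 13.6%). These matches describe the letters and are not evidence of binding.

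The comparison asked whether hydrogen water moved the matrix genes of the fasted liver. No collagen or laminin gene passed the test. With limma and Benjamini-Hochberg adjustment over all genes, 0 of 54 members had an adjusted p under 0.05 (lowest 0.638). Of the 19938 genes tested, 0 (0%) did, with a lowest adjusted p of 0.558. An unadjusted p under 0.05 was found for 3 of 54 members, against 1429 genes or 7.17% of all, so the members' share was not above the background. All 3 were higher with hydrogen water: Col6a5, Col8a2 and Lama4 (3.6% of all genes were higher at that threshold and 3.57% lower). The 4 values of each group lay wholly apart in 1 member, Col8a2, against 3.76% of all genes (1.76% with hydrogen water higher and 2.01% lower).

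Differences were small and mostly well bounded. They ran from −0.15 (Lama3) to 0.36 (Col6a5), with a median of 0.04 and a median SE of 0.11. In 39 members (72.2%) the difference was under 0.1 in size, as in 51.2% of all genes. The 95% interval lay within 0.5 of no difference in 50 members (92.6%), against 78.7% of all genes. The 4 exceptions were Col12a1, Col13a1, Col6a5 and Lamb3. No member differed by more than 0.5, as 240 of all genes did. Members also varied little among mice of a group: their median SD was 0.12 in controls and 0.104 with hydrogen water, against 0.166 and 0.159 over all genes.

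More members were higher than lower with hydrogen water, 34 against 20, but that split depended on the scaling of the arrays. After quantile normalization the counts were 25 and 29, and after median centring of the arrays 28 and 26, with medians of −0.007 and 0.002. The share of members higher was 63% as deposited, 46.3% after quantile normalization and 51.9% after centring. Over all genes that share was 48.7%, 39.4% and 37.9%, and the median difference was −0.00, −0.04 and −0.04. The members' share was thus above that of all genes under each scaling, which was not tested. Later counts of genes higher are to be read beside these shares. The split also moved with single mice, to 41 and 13 without control 4 and to 29 and 25 without hydrogen water 2, where the median was 0.01. The medians without control 1 and without hydrogen water 1 were both 0.02.

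**Figure D1:**
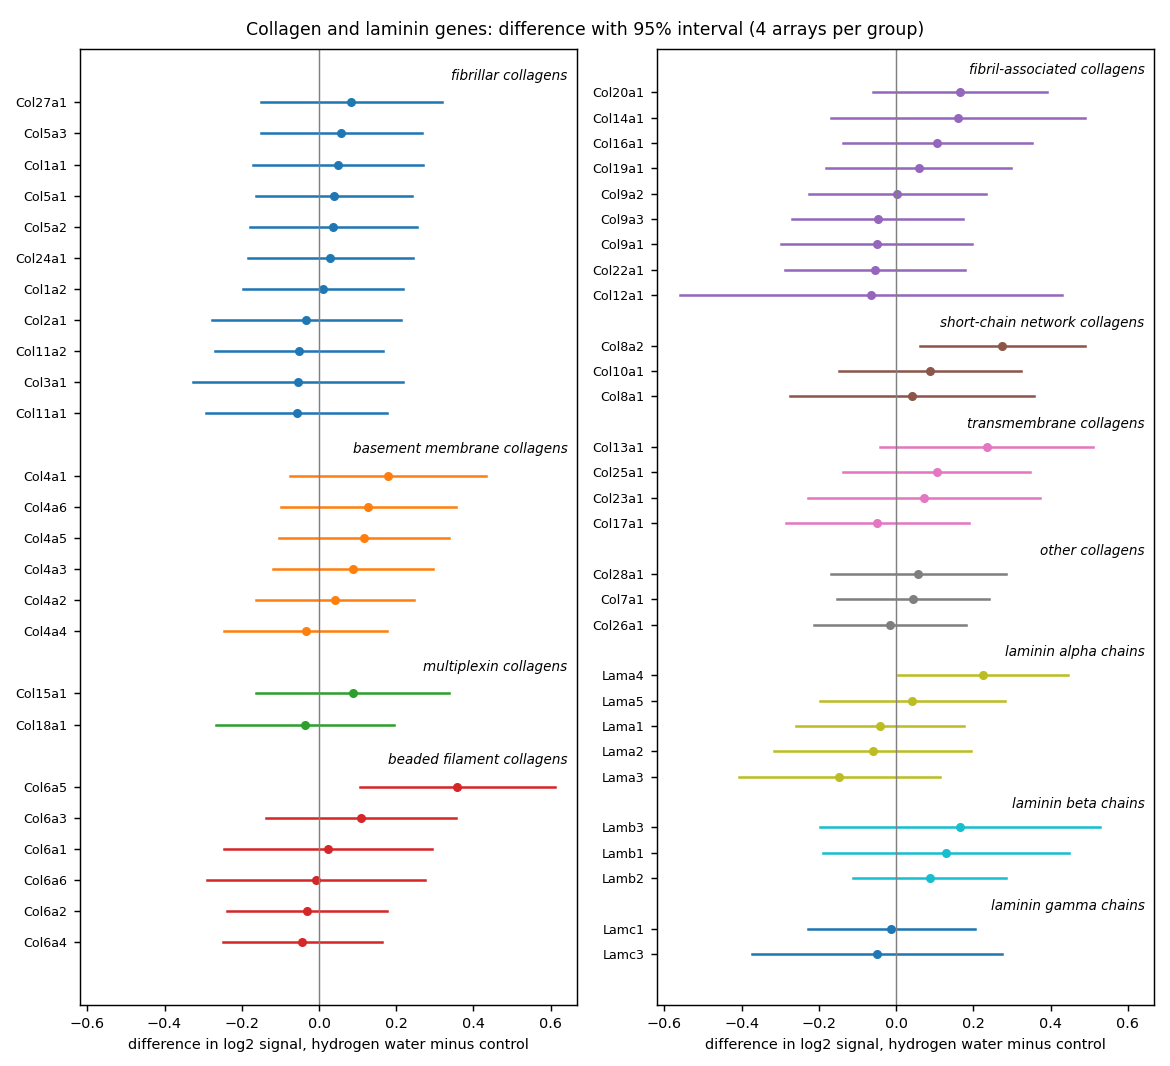
Differences in log2 signal (hydrogen water minus control, horizontal axis) of the 54 collagen and laminin genes, grouped by class, each a point with its 95% interval from limma. Points run from −0.15 (Lama3) to 0.36 (Col6a5), and 50 of the 54 intervals lie within 0.5 of no difference.

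Around each gene's mean over the 8 arrays, the members' mean stood at −0.07, 0.01, −0.07 and 0.04 on controls 1 to 4 and at 0.04, 0.10, −0.00 and −0.04 on hydrogen water 1 to 4. The groups overlapped, at −0.02 ± 0.06 (SD, n = 4) and 0.02 ± 0.06 (SD, n = 4). Control 3 was the lowest of all arrays in 15 members and control 1 in 11. Hydrogen water 2 was the highest in 15, control 4 in 12 and hydrogen water 1 in 11.

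**Figure D2:**
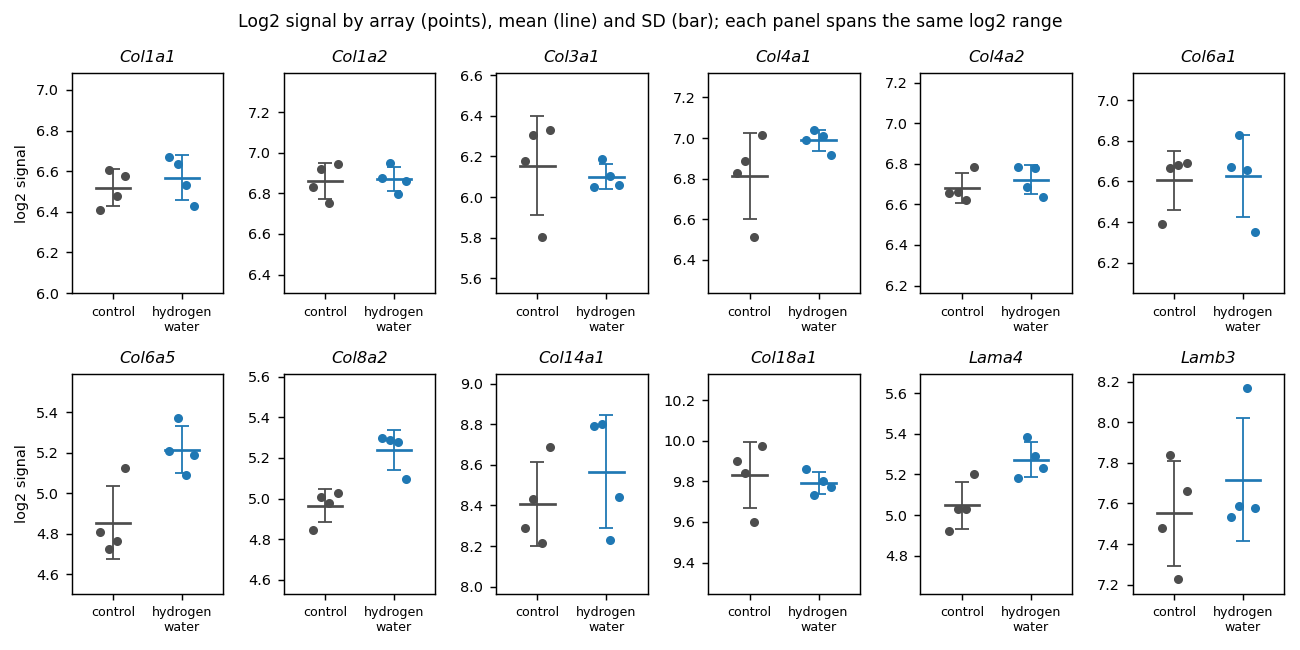
Log2 signal on each array (vertical axis) for 12 of the collagen and laminin genes, control against hydrogen water, with points for the 4 mice of a group and lines and bars for the mean ± SD. Each panel spans the same range of log2 signal. The groups overlap in every gene shown but Col8a2, whose hydrogen water values (5.09 to 5.30) lie above the controls (4.85 to 5.03).

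The major fibrillar chains of the liver stood at nearly the same signal in both groups. Col1a1, which gives the larger share of the type I trimer, stood at 6.41, 6.61, 6.48 and 6.58 on controls 1 to 4 and at 6.67, 6.64, 6.53 and 6.43 on hydrogen water 1 to 4. The groups overlapped, and the difference was 0.05 (SE 0.10, 95% interval −0.17 to 0.27, limma adjusted p = 0.948). Its partner Col1a2 stood at 6.83, 6.92, 6.75 and 6.94 in controls and at 6.87, 6.95, 6.80 and 6.86 with hydrogen water. The hydrogen water values lay inside or just beside the control range, with a difference of 0.01 (95% interval −0.20 to 0.22, limma adjusted p = 0.992). Col3a1, the single chain of type III collagen, stood at 6.18, 6.30, 5.80 and 6.33 in controls and at 6.05, 6.19, 6.10 and 6.06 with hydrogen water. Control 3 was low for Col3a1, and the difference was −0.05 (95% interval −0.33 to 0.22, limma adjusted p = 0.954). That of Col3a1 was −0.17 without control 3.

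The other fibrillar chains had differences of like size. Type V collagen starts and limits fibril width: its chains Col5a1, Col5a2 and Col5a3 differed by 0.04, 0.04 and 0.06. Col5a2 stood at 4.89, 4.97, 5.04 and 5.07 in controls and at 5.15, 5.06, 4.89 and 5.02 with hydrogen water. Col27a1, a fibrillar chain of developing cartilage, stood at 6.65, 6.76, 6.60 and 6.99 against 6.86, 6.82, 6.86 and 6.79, a difference of 0.08 (95% interval −0.15 to 0.32). The hydrogen water values all lay between the control values. The cartilage chains Col2a1, Col11a1 and Col11a2 differed by −0.03, −0.06 and −0.05. Of 11 fibrillar genes, 7 had a positive and 4 a negative difference, with a median of 0.03. After quantile normalization or median centring 3 of the 11 were positive, beside 39.4% and 37.9% of all genes.

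Type IV collagen had a positive difference in 5 of its 6 chains, as deposited and after quantile normalization or median centring alike. Its median was 0.10 as deposited and 0.06 under both scalings. Of all genes, 48.7% were higher as deposited, 39.4% after quantile normalization and 37.9% after centring. Only 2 of the 6 chains lay above the median level of all genes, and 0 had an unadjusted p under 0.05. The paired chains of most basement membranes are Col4a1 and Col4a2. Col4a1 stood at 6.83, 6.89, 6.52 and 7.01 on controls 1 to 4 and at 6.99, 7.04, 7.01 and 6.92 on hydrogen water 1 to 4. Control 3 was the low value, and the groups overlapped between 6.92 and 7.01. The means were 6.81 ± 0.21 (SD, n = 4) and 6.99 ± 0.05 (SD, n = 4). The difference of Col4a1 was 0.18 (SE 0.12, 95% interval −0.08 to 0.43, limma adjusted p = 0.799, two-sided exact permutation p = 0.114), and 0.08 without control 3.

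Col4a2 stood at 6.66, 6.66, 6.62 and 6.79 in controls and at 6.78, 6.69, 6.78 and 6.64 with hydrogen water. The difference was 0.04 (95% interval −0.16 to 0.25, limma adjusted p = 0.954). The 4 remaining chains belong to specialised membranes, such as that of the kidney glomerulus. Col4a5 stood at 4.96, 5.18, 4.98 and 5.02 against 5.03, 5.16, 5.29 and 5.14, a difference of 0.12 (SE 0.10). Col4a6 differed by 0.13 (SE 0.10), Col4a3 by 0.09 (SE 0.09) and Col4a4 by −0.03 (SE 0.10). Sinusoidal endothelial markers, from cells that make type IV collagen, were higher in 9 of 9 genes, with a median of 0.33. Their list mean lay between −0.49 and 0.11 in controls and between −0.20 and 0.45 with hydrogen water. The part of this cell type in the type IV values was not tested.

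Multiplexins carry an endostatin-like end and sit in vessel basement membranes. Col18a1 stood at 9.90, 9.84, 9.60 and 9.98 in controls and at 9.86, 9.73, 9.80 and 9.77 with hydrogen water. The hydrogen water values lay within the control range, at 9.79 ± 0.05 (SD, n = 4) against 9.83 ± 0.16 (SD, n = 4). The difference of Col18a1 was −0.04 (95% interval −0.27 to 0.19, limma adjusted p = 0.968), and −0.11 without control 3. Col15a1 stood at 6.26, 6.40, 6.08 and 5.96 against 6.16, 6.31, 6.32 and 6.25, a difference of 0.09 (SE 0.11).

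Type VI collagen forms beaded filaments close to cells from the chains of Col6a1, Col6a2 and a long chain such as that of Col6a3. Col6a1 stood at 6.39, 6.66, 6.68 and 6.69 in controls and at 6.67, 6.83, 6.66 and 6.35 with hydrogen water. Control 1 and hydrogen water 4 were the low values, and the difference was 0.02 (95% interval −0.25 to 0.29). Col6a2 differed by −0.03 (SE 0.10). Col6a3, the usual long chain, stood at 5.90, 5.95, 5.63 and 6.09 against 6.10, 5.96, 5.96 and 5.99, a difference of 0.11 (SE 0.11, limma adjusted p = 0.887).

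Col6a5, another long chain, with a signal below the median of all genes, had the largest difference of all members. It stood at 4.81, 4.73, 4.77 and 5.12 on controls 1 to 4 and at 5.21, 5.37, 5.09 and 5.19 on hydrogen water 1 to 4. Control 4 reached into the hydrogen water range, and the other 3 controls lay below it. The means were 4.86 ± 0.18 (SD, n = 4) and 5.21 ± 0.12 (SD, n = 4). The difference was 0.36 (SE 0.12, 95% interval 0.11 to 0.61), with a limma adjusted p of 0.638 and a two-sided exact permutation p of 0.0571. A second, dimmer probe set of Col6a5 went the other way, from 4.30 in controls to 4.20 with hydrogen water, a difference of −0.11, and the mean of both probe sets differed by 0.13. The remaining long chains, Col6a4 and Col6a6, differed by −0.04 and −0.01.

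Fibril-associated collagens sit on the surface of fibrils and do not form fibrils of their own. Col14a1 (undulin), which binds type I fibrils, stood at 8.29, 8.43, 8.22 and 8.69 in controls and at 8.79, 8.80, 8.23 and 8.44 with hydrogen water. Hydrogen water 1 and 2 were the highest of all mice and hydrogen water 3 was near the lowest control. The means were 8.41 ± 0.21 (SD, n = 4) and 8.57 ± 0.28 (SD, n = 4). Col14a1 differed by 0.16 (95% interval −0.17 to 0.49, limma adjusted p = 0.879). Of the 9 genes of this class 5 were higher and 4 lower, with a median of 0.00. Under either rescaling 4 were higher, with medians of −0.03 (quantile) and −0.04 (centring). Col16a1 and Col22a1 differed by 0.11 and −0.06.

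Col12a1, the close relative of Col14a1 found in tissue under tension, had the widest spread of any member. It stood at 4.94, 5.84, 4.56 and 4.78 in controls and at 5.18, 5.03, 4.88 and 4.78 with hydrogen water, so control 2 stood well above the rest. The difference was −0.07 (95% interval −0.56 to 0.43), and 0.20 without control 2. The same mouse was high in contractile and surface-lining markers. Smooth muscle actin (Acta2) stood at 8.21 on control 2 while the 3 remaining controls ran from 5.94 to 6.40 and the hydrogen water mice from 5.49 to 6.32. The mean of the mesothelial markers was 0.74 on control 2 and 0.58 on hydrogen water 2, against −0.47 to 0.15 on the other 6 arrays. On hydrogen water 2, Col12a1 stood at 5.03. The part of these cell types in the Col12a1 values was not tested.

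Among the remaining collagens, Col8a2, a short-chain collagen of vessel walls and of the membrane under the corneal endothelium, was the member whose groups did not overlap. It stood at 4.85, 5.01, 4.98 and 5.03 on controls 1 to 4 and at 5.30, 5.29, 5.28 and 5.09 on hydrogen water 1 to 4. Hydrogen water 4 lay just above the highest control. The means were 4.97 ± 0.08 (SD, n = 4) and 5.24 ± 0.10 (SD, n = 4). The difference was 0.27 (SE 0.10, 95% interval 0.06 to 0.49, limma adjusted p = 0.655). Its two-sided exact permutation p of 0.0286 is the smallest that 70 assignments of the arrays can give. The related Col8a1 and Col10a1 differed by 0.04 and 0.09.

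Of the transmembrane collagens, Col13a1 stood at 6.28, 6.23, 5.90 and 6.47 in controls and at 6.32, 6.54, 6.54 and 6.42 with hydrogen water. The groups overlapped, with control 3 the lowest mouse, and the difference was 0.23 (SE 0.13, limma adjusted p = 0.739, two-sided exact permutation p = 0.114). Col23a1, Col25a1 and Col17a1 differed by 0.07, 0.10 and −0.05. Col7a1, the anchoring fibril chain under epithelia, differed by 0.04, and Col26a1 and Col28a1 by −0.02 and 0.06.

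The laminin alpha chains, which carry the main cell-binding end of the trimer, had differences in both directions, 2 higher and 3 lower, with a median of −0.04 (0.02 without hydrogen water 3, −0.09 after quantile normalization and −0.08 after median centring). Lama4, the alpha chain of endothelial basement membranes, stood at 4.92, 5.03, 5.03 and 5.20 in controls and at 5.18, 5.39, 5.29 and 5.23 with hydrogen water. Control 4 overlapped the lowest hydrogen water mouse. The means were 5.05 ± 0.12 (SD, n = 4) and 5.27 ± 0.09 (SD, n = 4), which differed by 0.23 (SE 0.10, 95% interval 0.01 to 0.45, limma adjusted p = 0.687, two-sided exact permutation p = 0.0571). Lama5, the broadly expressed alpha chain, stood at 5.66, 5.87, 5.54 and 5.77 against 5.60, 5.91, 5.76 and 5.74, a difference of 0.04 (SE 0.11). The epithelial chain Lama3 stood at 5.35, 5.46, 5.32 and 5.22 against 4.95, 5.10, 5.41 and 5.31. Only hydrogen water 1 and 2 were below all controls, and the difference of Lama3 was −0.15 (SE 0.12, limma adjusted p = 0.851). Vascular endothelial markers were higher in 6 of 9 genes, with a median of 0.07, and their part in the Lama4 values was not tested.

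All 3 beta chains had a positive difference under each scaling. Their median was 0.13 as deposited, 0.08 after quantile normalization and 0.09 after median centring. Lamb1 stood at 6.18, 6.60, 6.19 and 6.35 in controls and at 6.83, 6.47, 6.26 and 6.28 with hydrogen water. Hydrogen water 1 was the highest and the other 3 overlapped the controls, a difference of 0.13 (95% interval −0.19 to 0.45, limma adjusted p = 0.899). Lamb2, the beta chain of vessel walls and synapses, stood at 6.59, 6.56, 6.54 and 6.65 against 6.74, 6.63, 6.61 and 6.69. Its difference was 0.09 (95% interval −0.11 to 0.29, two-sided exact permutation p = 0.0857). Lamb3, which joins Lama3 in epithelial anchoring laminin, stood at 7.48, 7.84, 7.23 and 7.66 against 7.53, 7.59, 8.17 and 7.58. Hydrogen water 3 was far above the other 3 of its group, and the Lamb3 difference of 0.16 (SE 0.17) was 0.01 without it.

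Lamc1, the gamma chain shared by most laminin trimers, stood at 7.41, 7.28, 7.42 and 7.59 in controls and at 7.46, 7.35, 7.45 and 7.39 with hydrogen water. The hydrogen water values lay within the control range, with a difference of −0.01 (95% interval −0.23 to 0.20, limma adjusted p = 0.988). Lamc3 stood at 6.54, 6.47, 6.63 and 6.78 against 6.91, 6.68, 6.18 and 6.45. It had the largest spread with hydrogen water of any member (SD 0.311) and differed by −0.05 (SE 0.15).

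Chains that build one trimer, and the fibril partners Col1a1 and Col3a1, were set against each other across the 8 mice in 6 pairs, and 0 of 6 correlations passed an exact permutation test after Benjamini-Hochberg adjustment. Col4a1 and Col4a2 had a Pearson r of 0.673 (exact permutation p = 0.0373, adjusted 0.112) and a Spearman rho of 0.762 (exact permutation p = 0.0368, adjusted 0.221). Without controls 1 and 3, the mice farthest from the Col4a1 median, r was 0.657 (exact permutation p = 0.221). Col6a1 and Col6a2 had r of 0.768 (exact permutation p = 0.0352, adjusted 0.112) and rho of 0.452 (exact permutation p = 0.267, adjusted 0.534). Without control 1 and hydrogen water 4, the mice farthest from the Col6a1 median, that r was −0.302 (exact permutation p = 0.6). Leaving them out also narrows the range of Col6a1, so the fall cannot show that the relation rested on those mice. Over the 8 mice, with group means taken out, r was 0.806. The signals of a pair come from the same arrays and share their scaling.

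Col1a1 and Col1a2 had r of 0.587 (exact permutation p = 0.13, adjusted 0.26) and rho of 0.643 (exact permutation p = 0.0962, adjusted 0.289), and r of 0.744 without control 1 and hydrogen water 4. For Col1a1 and Col3a1 r was 0.308 (exact permutation p = 0.473, adjusted 0.568) and rho 0.19 (exact permutation p = 0.665, adjusted 0.798), with r of 0.494 after leaving out the same mice. The laminin pairs were weaker still on Pearson's measure for Lamb1 and Lamc1, at −0.166 (exact permutation p = 0.673, adjusted 0.673), with rho of −0.0714 (exact permutation p = 0.882, adjusted 0.882) and r of −0.0298 without the farthest 2 mice. Lamb2 and Lamc1 had r of 0.371 (exact permutation p = 0.368, adjusted 0.552), rho of 0.381 (exact permutation p = 0.36, adjusted 0.54) and r of 0.452 without the farthest 2.

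**Figure D3:**
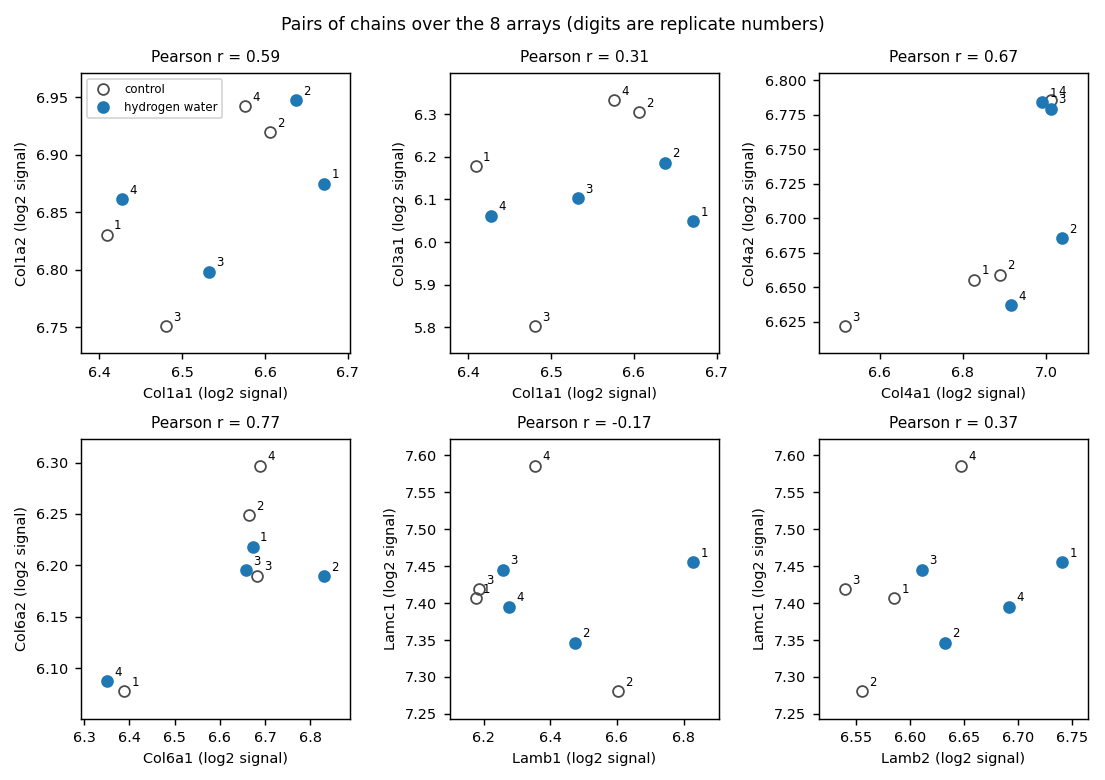
Log2 signals of chain partners against each other, 1 point per mouse and 1 panel per pair, control and hydrogen water in separate colours. Col4a1 and Col4a2 have Pearson r of 0.673 over the 8 mice, and Lamb1 and Lamc1 have −0.166.

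Several members are neighbours in the genome. In RefSeq order there were 8 adjacent pairs of members, and 2 of them had differences of the same sign. These were Col4a1 with Col4a2 and Col4a6 with Col4a5. Start sites and strands were compared for these pairs alone, after their signs were seen. The comparison therefore cannot show whether neighbours with close starts share a sign. Col4a4 and Col4a3, also neighbours, had opposite signs, at −0.03 and 0.09, and their starts were not compared. The annotated starts of Col4a1 (minus strand, 11312826) and Col4a2 (plus strand, 11312805) lie 21 bases apart on chromosome 8 of GRCm38.p6, and their promoter windows overlap by 78 bases. Col4a1 and Col4a2 differed by 0.18 and 0.04. The starts of Col4a6 (minus strand, 141474076) and Col4a5 (plus strand, 141475419) lie 1343 bases apart on chromosome X. Col4a6 and Col4a5 differed by 0.13 and 0.12. Col3a1 and Col5a2, also neighbours, differed by −0.05 and 0.04.

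The genes that fold, cut, link and break down these chains gave no call either. In each of the 6 lists around the pathway, 0 genes passed the adjusted threshold. Of 19 measured genes for folding and modification, 8 were higher and 11 lower, with a median of −0.06 (0.02 without control 2). Under either rescaling 6 were higher, with a median of −0.09. Serpinh1, the collagen chaperone, stood at 6.41, 6.51, 6.21 and 6.53 in controls and at 6.70, 6.72, 6.15 and 6.10 with hydrogen water. Hydrogen water 1 and 2 lay above all controls and 3 and 4 below them, and the difference was 0.00 (SE 0.16). P4ha1, the prolyl hydroxylase subunit that stabilises the helix, stood at 8.04, 8.11, 7.35 and 6.63 against 7.55, 7.63, 6.96 and 7.55, a wide −0.11 (95% interval −0.73 to 0.51). Without control 4 it was −0.41.

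The folding genes with the smallest unadjusted p were P4ha3 (−0.24, SE 0.12), Ppib and Plod3 (0.21, SE 0.16). Ppib, the prolyl isomerase that speeds helix formation, stood at 12.21, 12.14, 12.07 and 12.12 in controls and at 11.76, 12.12, 11.76 and 12.03 with hydrogen water. Hydrogen water 1 and 3 were the low mice, and the difference was −0.22 (SE 0.11, limma adjusted p = 0.727). Plod3, a lysyl hydroxylase, gave −0.01 without control 3 and hydrogen water 4.

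Of 11 genes for propeptide processing and crosslinking, 5 were higher and 6 lower, with a median of −0.02. After quantile normalization 3 were higher (median −0.04), and after median centring 2 (median −0.06). Pcolce2 and Pcolce, enhancers of propeptide removal, differed by −0.15 (SE 0.11) and −0.07 (SE 0.12). The crosslinking oxidases Lox and Loxl3 differed by −0.06 (SE 0.18) and 0.09 (SE 0.10). Lox gave 0.13 without control 3 and hydrogen water 4.

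Of 15 genes for breakdown and its inhibitors, 7 were higher and 8 lower, with a median of −0.00. Under either rescaling 5 were higher, with medians of −0.05 (quantile) and −0.04 (centring), and the median was 0.14 over genes above the median level alone. Timp1, a metalloproteinase inhibitor raised in liver injury, stood at 4.47, 4.11, 4.44 and 4.14 in controls and at 4.07, 4.06, 4.10 and 3.97 with hydrogen water. Timp1 was the 1 gene of the 15 whose groups lay apart, by a narrow gap, against 3.76% of all genes (2.01% lower). Its level of 4.17 was below the median of all genes. The difference was −0.24 (95% interval −0.49 to 0.00, limma adjusted p = 0.697, two-sided exact permutation p = 0.0286). Mrc2, a receptor that takes up collagen, differed by 0.18 (SE 0.10), the protease Plau by −0.15 (SE 0.14) and the membrane collagenase Mmp14 by −0.08 (SE 0.18).

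The partners of laminin and type IV collagen in basement membranes were higher in 10 of 16 genes, with a median of 0.04, near 0 after quantile normalization (0.009) or median centring (−0.002). Perlecan (Hspg2), their heparan sulfate proteoglycan, stood at 7.17, 6.80, 6.53 and 6.97 in controls and at 7.12, 7.11, 7.16 and 7.18 with hydrogen water. Control 1 lay within the hydrogen water range and the other controls below it, with a difference of 0.27 (SE 0.13, limma adjusted p = 0.708). The linkers Nid1 and Nid2 differed by 0.04 (SE 0.11) and −0.25 (SE 0.12, limma adjusted p = 0.720), and agrin (Agrn) by 0.13 (SE 0.10).

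Among 14 receptors, 7 were higher and 7 lower, with a median of −0.01. After quantile normalization 5 were higher (median −0.03), and after median centring 4 (median −0.05). Lair1, an inhibitory collagen receptor of immune cells, was the 1 receptor of 14 past the unadjusted threshold, which 7.17% of all genes passed. This receptor stood at 4.40, 4.30, 4.56 and 4.60 in controls and at 4.76, 4.68, 4.86 and 5.09 with hydrogen water. Lair1 was the 1 receptor of the 14 whose groups lay apart, against 3.76% of all genes (1.76% higher). Its level of 4.66 was below the median of all genes. The difference was 0.38 (95% interval 0.12 to 0.64, limma adjusted p = 0.638, two-sided exact permutation p = 0.0286). Kupffer cell markers were higher in 10 of 10 genes, with a median of 0.35 and a list mean between −0.44 and 0.16 in controls and between −0.15 and 0.57 with hydrogen water. After quantile normalization 10 of the Kupffer cell markers were higher (median 0.32), and after median centring 9 (median 0.31). The part of these cells in the Lair1 values was not tested. The integrins Itga11 and Itgb1 differed by −0.22 (SE 0.11) and 0.01 (SE 0.12), dystroglycan (Dag1) by −0.17 (SE 0.10) and the discoidin receptor Ddr1 by −0.11 (SE 0.13).

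In TGF-beta signalling, the main inducer of collagen genes, 9 of 16 genes were higher, with a median of 0.09 (0.04 without control 3 and after quantile normalization, 0.05 after median centring). An unadjusted p under 0.05 was found for 3 of the 16, all on the higher side. Of all genes, 7.17% passed that threshold in either direction and 3.6% on the higher side. The list itself was not tested. Two-sided exact permutation p was 0.114 for Ccn2, 0.0857 for Tgfbr3 and 0.114 for Ltbp4. Ccn2, a matrix-inducing target of TGF-beta, stood at 8.25, 8.87, 8.78 and 8.94 in controls and at 9.46, 9.36, 8.75 and 9.07 with hydrogen water. Hydrogen water 1 and 2 were highest and hydrogen water 3 lay among the controls, with a difference of 0.45 (95% interval 0.05 to 0.84, limma adjusted p = 0.687). The co-receptor Tgfbr3 and the latency protein Ltbp4 differed by 0.25 (SE 0.11, limma adjusted p = 0.687) and 0.28 (SE 0.13, limma adjusted p = 0.693). The ligand gene Tgfb1 differed by 0.26 (SE 0.16, limma adjusted p = 0.785). The collagen genes that TGF-beta is known to raise, Col1a1, Col1a2 and Col3a1, differed by 0.05, 0.01 and −0.05. The part of TGF-beta signalling in their values was not tested.

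**Figure D4:**
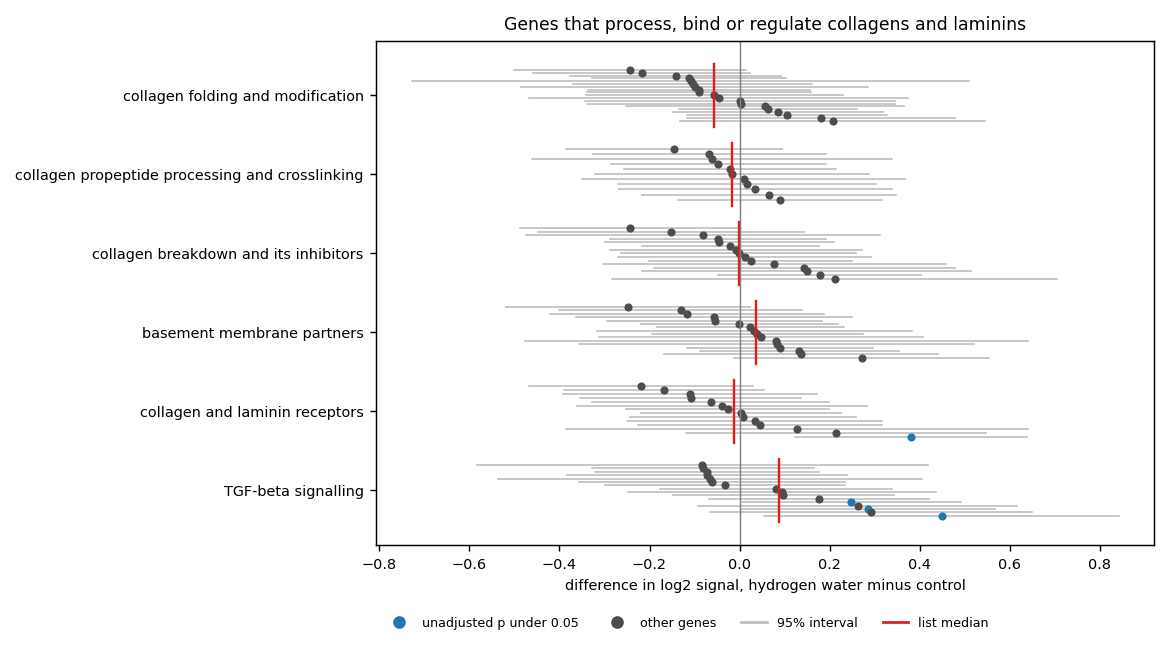
Differences in log2 signal (hydrogen water minus control) for every measured gene of the 6 lists around collagen and laminin, with grey lines for 95% intervals, blue points for an unadjusted p under 0.05 and a red line for the list median. Lair1 (0.38) and Ccn2 (0.45) lie farthest above 0, and none of the genes passed the adjusted threshold.

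Among cells that make fibrillar collagen, stellate cell markers were split, while most myofibroblast and portal fibroblast markers were lower with hydrogen water. Stellate cell markers were higher in 6 and lower in 7 of 13 genes, with a median of −0.08. Their list mean ran from −0.07 to 0.09 in controls and from −0.26 to 0.21 with hydrogen water, where mice 3 and 4 were low. Lrat, which stores retinol as ester in stellate cells, stood at 8.03, 8.02, 8.96 and 8.06 against 8.06, 8.15, 7.42 and 7.48. Control 3 was high for Lrat and hydrogen water 3 and 4 were low. The Lrat difference of −0.49 (SE 0.23, limma adjusted p = 0.703) was the lowest of the 13. The highest was that of Ecm1, at 0.29 (SE 0.15, limma adjusted p = 0.733). Myofibroblast markers were lower in 8 of 9 genes, with a median of −0.06 (−0.13 after quantile normalization, −0.10 after median centring). Under either rescaling 0 of the 9 were higher. Their list mean was 0.49 on control 2 against −0.16 to 0.11 on the other controls. Portal fibroblast markers were lower in 7 of 10 genes, with a median of −0.08. The part of these cell types in the fibrillar values was not tested.

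**Figure D5:**
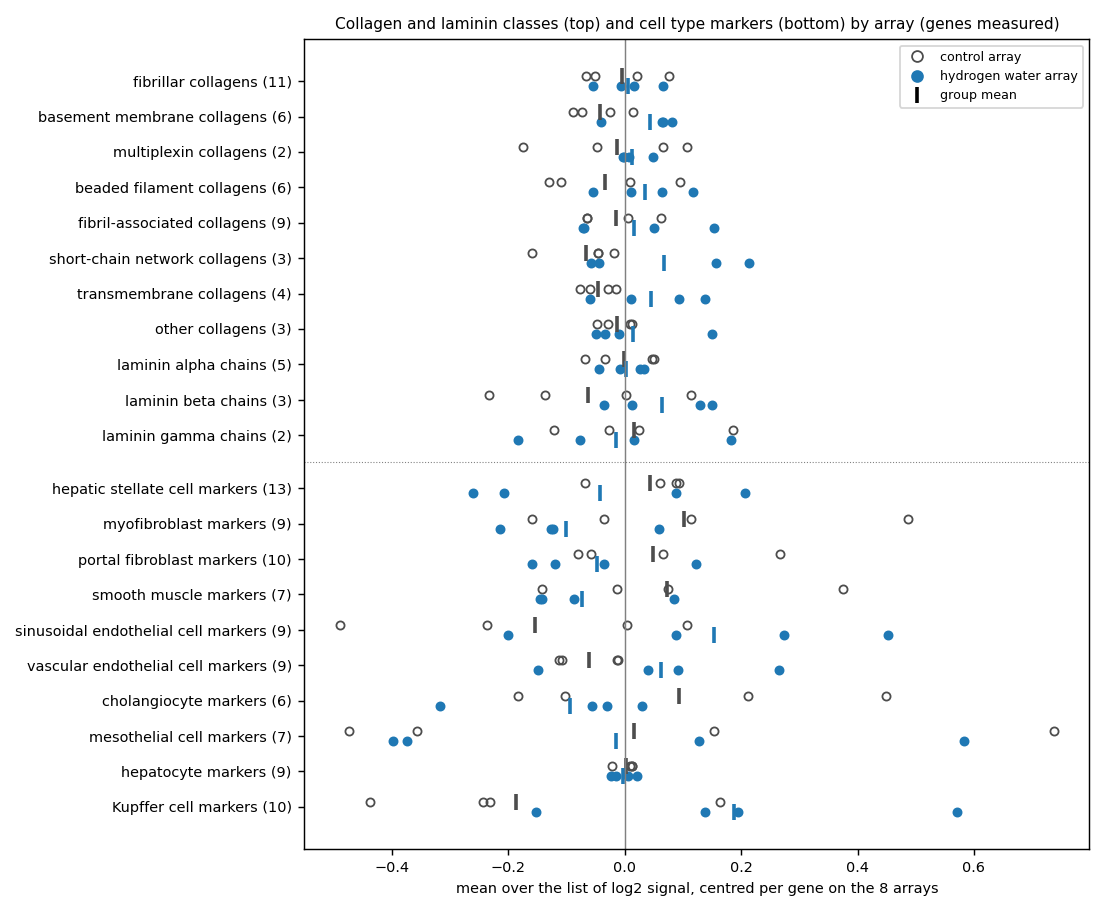
Mean log2 signal around each gene's mean (horizontal axis) on each control array (open circles) and hydrogen water array (filled circles), with bars for group means, for the 11 classes of collagens and laminins and the lists of cell type markers. The groups overlap in each class, while mesothelial and myofibroblast markers are high on control 2 (0.74 and 0.49).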

How the data were processed

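Liver RNA of 4 control and 4 hydrogen water mice was prepared with RNeasy Mini columns and the Ambion WT Expression Kit, then biotin-labelled, per the labels. The authors deposited log2 signals per probe set, and the submitters' processing notes name Affymetrix Expression Console as their source. The log2 scale was inferred from the values. Its version, the normalization and summary methods and any genome build were not given in the sources used here. Precision is limited by the number of arrays. No 2 arrays held identical values, and 0 columns were left unused.

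Of 35556 probe sets, 21789 had 1 gene symbol, 1621 several and 12146 none here. A gene was read from its brightest probe set by mean, which left 19938 genes. Of these, 19856 matched RefSeq (GRCm38.p6). Dim genes were kept. The model was limma's lmFit with eBayes (limma 3.58.1, R 4.3.3) on 2 groups, two-sided. P-values were adjusted by Benjamini-Hochberg over all genes and called at 0.05, on 6 residual and 5.88 prior degrees of freedom. Single values also had an exact permutation test over 70 assignments. The fit was tested on simulated data. Figures used matplotlib 3.10.9 (Python 3.11.15).

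Members, lists and rules were chosen with earlier results of these data known, so lists are described by counts and medians without a test. The rule for named genes took members past the threshold (0), the 5 brighter members with the smallest unadjusted p each way and a fixed set of chains. For each pathway list it took the 3 genes with the smallest unadjusted p, plus 10 fixed genes in all. Col6a5, Col8a2, Col12a1 and the markers Acta2, Lrat and Ecm1 were chosen after their values were seen. Other members named here fall outside that rule and were described with their values known. They are given by their differences, and some, such as Lama3, Lamc3 and Col4a5, also by their values on each array.

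Alternatives were the genes above the median level only, averaged probe sets, probe sets of several symbols, quantile normalization, centring on array medians, a trended robust variance, array weights, a replicate block, control 3 and hydrogen water 4 both left out, and each array left out.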

Additional observations from a re-analysis of the deposited data

Results flagged for a closer look

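Of 166 sets of 4 values tested (genes and list means in each group), 7 had an end value far from the other 3 by Dixon's criterion, which chance meets in about 1 in 20 sets. The figures given first are the gap to the nearest value as a share of the range. For single genes, Col6a1 on control 1 gave 0.92 (6.39 against 6.66 to 6.69) and Col8a2 on hydrogen water 4 gave 0.907 (5.09 against 5.28 to 5.30). Lamb3 on hydrogen water 3 gave 0.915 (8.17 against 7.53 to 7.59) and P4ha1 on hydrogen water 3 gave 0.885 (6.96 against 7.55 to 7.63). For list means, type IV collagen on hydrogen water 4 gave 0.857 (−0.04 against 0.06 to 0.08). The breakdown genes on control 3 gave 0.983 (−0.08 against 0.02), and the hepatocyte markers on control 3 gave 0.89 (−0.02 against 0.01).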

How the results depend on the processing

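In all 17 alternatives 0 members passed the adjusted threshold. Genes past it numbered 3 with control 3 and hydrogen water 4 both left out and 0 to 1 with single arrays left out (1 without control 2 and 1 without control 3). Members at an unadjusted p under 0.05 numbered 0 with only genes above the median level, which leaves out Col6a5, Col8a2 and Lama4, and 2 to 4 with single arrays left out. The median over members ran from 0.01 to 0.06 with single arrays left out. With a replicate block, 0 genes passed and 2 members and 1313 genes had an unadjusted p under 0.05. Same-numbered mice did not deviate together (correlations −0.0559, 0.0587, −0.0291 and −0.159), 0 of 4 controls correlated best with their own number, and the labels give the numbers no further meaning. The mean of its probe sets gave Col6a5 a difference of 0.13.

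Of 868 alternatives over 52 named genes, 817 kept the direction. The 51 that did not fell in 19 genes, with main differences of at most 0.207 in size, and the cause was not tested. Quantile normalization gave −0.026 for Col1a2, −0.0092 for Col5a2, −0.011 for Col6a1, −0.0031 for Lama5 and −0.038 for Serpinh1. Median centring gave −0.029 for Col1a2, −0.0013 for Col5a2, −0.016 for Col6a1, −0.035 for Serpinh1 and −0.031 for Itgb1. Array weights gave −0.028 for Col1a2, −0.014 for Lama5, 0.014 for Lamc1, −0.063 for Serpinh1 and −0.034 for Itgb1. Leaving out both control 3 and hydrogen water 4 gave 0.036 for Col22a1, 0.028 for Col11a2, −0.024 for Col1a2, −0.0094 for Lama5, −0.015 for Plod3 and 0.13 for Lox. With single arrays left out, the ranges were −0.027 to 0.037 for Col1a2, −0.050 to 0.11 for Col6a1, −0.41 to 0.084 for P4ha1, −0.18 to 0.070 for Lox, −0.25 to 0.018 for Mmp14 and −0.22 to 0.20 for Col12a1. They were −0.014 to 0.094 for Lama5, −0.10 to 0.11 for Serpinh1, −0.079 to 0.069 for Itgb1, −0.17 to 0.0048 for Col3a1, −0.11 to 0.012 for Col18a1 and −0.073 to 0.00059 for Col6a2. For the chains and enzymes that remain, they were −0.060 to 0.042 for Lamc1, −0.0025 to 0.083 for Col5a2, −0.021 to 0.11 for Nid1, −0.13 to 0.0082 for Pcolce, −0.10 to 0.0016 for Col22a1 and −0.081 to 0.0079 for Col11a2. Of 457 list medians, 449 moved by less than the SD between arrays and 8 by more.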

Other observations

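Mesothelial markers, which stand for the capsule that covers the liver, varied more among mice than between the groups. Their list mean was −0.36, 0.74, −0.47 and 0.15 on controls 1 to 4 and −0.37, 0.58, 0.13 and −0.40 on hydrogen water 1 to 4. Bile duct (cholangiocyte) markers were lower in 5 of 6 genes, with a median of −0.23. The 1 of the 6 above the median level differed by 0.19. Smooth muscle markers were lower in 6 of 7 genes, with a median of −0.06 (−0.12 after quantile normalization, −0.10 after median centring). On control 2 the smooth muscle list mean was 0.37 and the bile duct list mean 0.45. None of these genes had an adjusted p under 0.05 in limma.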
